A study of Homo sapiens with 6 samples.

Results

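Small nucleolar RNAs (snoRNAs) and Cajal body RNAs (scaRNAs) were followed in newly made RNA of the human melanoma line A375, with and without forced expression of the phosphatase PRL3. Their genes were selected by symbol (SNORD, SNORA or SCARNA) and by measured values, at least 10 reads in each of the 6 libraries. Of 552 such genes listed among the 58243 gene identifiers, 106 met the rule, namely 55 SNORD, 43 SNORA and 8 SCARNA genes on 20 chromosomes. A further 133 had reads but fell below the minimum, and 313 had 0 reads in every library.

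The EV group held 3 libraries of cells stably transfected with the empty vector, and the PRL3 group held 3 libraries of cells stably transfected with a plasmid for HA-tagged human PRL3. Both groups were kept under Hygromycin B selection and received 4-thiouridine (4sU) at 500 µM for 20 min, after which the labelled RNA was tagged with biotin, pulled down and freed of ribosomal RNA before strand-specific sequencing. Whether each line was 1 clone, and whether the libraries of a group came from separate cultures, is not given in the sources used here, so that p-values measure the spread between libraries, which may be technical. PTP4A3, the gene of PRL3, had from 132 to 307 reads per EV library and from 20584 to 38659 per PRL3 library, as the labels say.

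Gene counts summed to between 36532207 and 57952035 reads a library. Of the reads aligned to 1 place, those outside annotated exons made up 30.2%, 28.7% and 41.1% in EV libraries and 69.1%, 62.8% and 66.9% in PRL3 libraries. Those set aside as ambiguous between genes made up 4.55%, 5.01% and 4.46% in EV libraries and 1.67%, 2.53% and 2.23% in PRL3 libraries. Both shares move with the group, and their part in the results below was not tested. The undifferentiated melanoma marker AXL and the neural crest factor SOX10 had at least 9882 reads in every library, while MITF, the melanocyte factor, had from 1004 to 2412, EGFR from 720 to 1394 and NGFR from 72 to 389. Of the pigment genes PMEL had from 26 to 61 reads, TYRP1 at most 20, DCT at most 11, and TYR and MLANA at most 2. PTPRC, CD3E and PECAM1, markers of blood and endothelial cells, had at most 12 reads, EPCAM had at most 21, and KRT18, a keratin listed here as an epithelial marker, had between 8866 and 34511. Some of these markers were lower in PRL3 cells, namely KRT18 (log2 fold change -1.73), NGFR (-1.69), SOX10 (-0.85) and AXL (-0.40), each past an adjusted p of 0.05 in the edgeR fit described below and with every PRL3 library below every EV library, and their part in the results was not tested.

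Box C/D snoRNAs, mostly SNORD genes, carry a C box near the 5′ end and a D box near the 3′ end, bind fibrillarin (FBL) and guide 2′-O-methylation, chiefly of ribosomal RNA. Box H/ACA snoRNAs, mostly SNORA genes, carry an ACA triplet near the 3′ end, bind dyskerin (DKC1) and guide pseudouridylation. The scaRNAs share these boxes but gather in Cajal bodies, where they guide changes in the spliceosomal small nuclear RNAs. In human cells nearly all are cut from introns of host genes, and the U3 and U13 snoRNAs (SNORD3 and SNORD13) are among the few made from promoters of their own.

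The boxes could be read in the annotated sequences of the members, taken from GENCODE release 44 on GRCh38. A C box core (TGATGA within the first 20 bases) together with a D box (CTGA within the last 20 bases) was found in 35 of 55 SNORD members (63.6%) and in 161 of 259 other SNORD genes listed (62.2%). By comparison, it occurred in 1 of 296 miRNA, snRNA and misc_RNA genes that passed the same read minimum. ACA within the last 10 bases was found in 40 of 43 SNORA members (93.0%), in 135 of 170 other SNORA genes (79.4%) and in 20 of the 296 comparison genes (6.76%). Only the listed strand was searched, and windows start at the annotated ends.

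The 4 box C/D members with a host that stood out below are shown first, with the C box core and the D box in capitals. SNORD99 has no such C box core in its first 20 bases.
SNORD12B: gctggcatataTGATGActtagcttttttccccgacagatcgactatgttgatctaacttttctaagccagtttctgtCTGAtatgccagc
SNORD12C: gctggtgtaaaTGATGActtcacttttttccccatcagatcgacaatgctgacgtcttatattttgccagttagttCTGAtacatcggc
SNORD99: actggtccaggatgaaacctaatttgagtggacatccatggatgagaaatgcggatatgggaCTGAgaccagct
SNORD104: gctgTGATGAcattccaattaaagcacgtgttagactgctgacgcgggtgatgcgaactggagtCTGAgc

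The next sequences are those of box H/ACA members that rose (SNORA71A and SNORA71C) or fell (SNORA23), with the ACA in capitals.
SNORA71A: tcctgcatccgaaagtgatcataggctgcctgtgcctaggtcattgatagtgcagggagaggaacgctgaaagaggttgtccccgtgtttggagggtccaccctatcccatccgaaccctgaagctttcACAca
SNORA71C: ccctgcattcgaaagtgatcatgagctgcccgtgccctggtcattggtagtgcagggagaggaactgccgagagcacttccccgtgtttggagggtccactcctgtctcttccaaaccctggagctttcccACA
SNORA23: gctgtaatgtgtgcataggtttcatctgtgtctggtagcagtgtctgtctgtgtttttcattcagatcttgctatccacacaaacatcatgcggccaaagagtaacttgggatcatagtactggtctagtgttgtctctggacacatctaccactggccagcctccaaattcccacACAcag

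Of the scaRNA members that fell, SCARNA5 carries both a C box core and a D box, in capitals. SCARNA21 and SCARNA13 carry an ACA, in capitals, within their last 10 bases.
SCARNA21: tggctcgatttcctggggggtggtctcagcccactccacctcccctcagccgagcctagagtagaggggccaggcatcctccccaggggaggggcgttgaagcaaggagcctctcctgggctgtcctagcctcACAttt
SCARNA5: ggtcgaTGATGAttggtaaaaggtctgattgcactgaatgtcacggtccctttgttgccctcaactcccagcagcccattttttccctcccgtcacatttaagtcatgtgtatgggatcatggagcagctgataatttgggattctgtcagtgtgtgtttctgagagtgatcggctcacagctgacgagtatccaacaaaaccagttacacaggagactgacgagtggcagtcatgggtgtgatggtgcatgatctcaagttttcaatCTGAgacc
SCARNA13: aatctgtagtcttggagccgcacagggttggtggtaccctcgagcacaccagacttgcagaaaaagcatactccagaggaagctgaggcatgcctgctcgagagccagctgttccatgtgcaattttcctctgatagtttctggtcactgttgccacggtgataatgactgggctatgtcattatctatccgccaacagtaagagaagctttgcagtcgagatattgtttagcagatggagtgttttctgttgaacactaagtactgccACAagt

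The U3 copies on chromosome 17 are shown over the 217 bases that RefSeq gives for the mature RNA, with capitals at the 2 positions where the copies differ. SNORD3B-2 is identical to SNORD3B-1 over this stretch.
SNORD3A: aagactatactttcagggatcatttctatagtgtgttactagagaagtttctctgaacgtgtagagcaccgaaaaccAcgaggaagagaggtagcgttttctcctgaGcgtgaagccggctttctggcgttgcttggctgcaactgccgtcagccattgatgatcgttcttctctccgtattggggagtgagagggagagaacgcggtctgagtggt
SNORD3B-1: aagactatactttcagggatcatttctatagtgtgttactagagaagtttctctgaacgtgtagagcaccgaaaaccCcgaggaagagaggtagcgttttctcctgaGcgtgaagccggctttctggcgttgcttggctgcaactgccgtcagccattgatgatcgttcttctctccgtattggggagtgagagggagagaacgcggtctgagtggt
SNORD3C: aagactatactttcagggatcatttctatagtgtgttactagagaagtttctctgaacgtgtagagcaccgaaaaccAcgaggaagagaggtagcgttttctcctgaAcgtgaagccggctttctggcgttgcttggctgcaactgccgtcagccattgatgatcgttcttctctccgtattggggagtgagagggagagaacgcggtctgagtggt

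The printed genes lie on GRCh38 as follows. SNORD12B (chr20:49280319-49280409, plus strand) overlaps an exon of ZFAS1, and SNORD12C (chr20:49278940-49279028, plus) lies in an intron of it. SNORD99 (chr1:28578749-28578822, minus) is intronic to SNHG12 and SNORD104 (chr17:64146083-64146152, plus) to SNHG25. SNORA71A (chr20:38427309-38427442, minus) and SNORA71C (chr20:38429670-38429803, minus) overlap exons of SNHG17. SNORA23 (chr11:9428773-9428954, plus) is intronic to IPO7. SCARNA21 (chr17:7906122-7906260, plus) is intronic to CHD3, SCARNA5 (chr2:233275727-233276002, plus) to ATG16L1, and SCARNA13 (chr14:95533355-95533629, minus) overlaps an exon of SNHG10. The U3 stretches are SNORD3A (chr17:19188016-19188232, plus), SNORD3B-1 (chr17:19061912-19062128, plus) and SNORD3C (chr17:19190029-19190245, minus).

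In PRL3 cells more snoRNA genes were higher than lower, whereas U3 from SNORD3A and 5 of the 8 scaRNAs were lower. Of the 106 members, 45 were higher and 11 were lower at the 0.05 threshold (edgeR's quasi-likelihood fit, with p adjusted by Benjamini-Hochberg over all 23884 genes tested), that is 42.5% and 10.4%. Over all genes tested, 20.0% were higher and 22.7% were lower. The median log2 fold change of PRL3 to EV was 0.88 over the members, from -4.04 to 2.22, beside 0.11 over all genes. For 50 members every PRL3 library was above every EV library and for 9 every one was below, as were 29.7% and 26.6% of all genes tested. These counts move with the scaling. With library size set to all uniquely aligned reads, in and out of exons, 27 members were higher and 16 lower, beside 8.17% and 35.5% of all genes tested, and the members' median was 0.40 and that of all genes -0.36. With library size alone 65 were higher and 6 lower, beside 39.8% and 12.9% of all genes. The members' median stood 0.77 above that of all genes under the first of these and under the main scaling alike. A change of scaling shifts all genes nearly alike, so this likeness is no check of the result. The difference was 0.57 without PRL3 B11 and 0.90 without EV B3. It was 0.91 with a minimum of 5 reads and 0.60 with 20. Without PRL3 B9, 6 members were lower in place of 11. In such bulk libraries, fewer cells that make an RNA and less of it per cell cannot be told apart.

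Class by class, 25 of the 55 box C/D members were higher (45.5%) and 2 lower (3.64%), with a median log2 fold change of 0.94. Of the 43 box H/ACA members 18 were higher (41.9%) and 4 lower (9.30%), with a median of 0.99. Of the 8 scaRNA members 2 were higher (25%) and 5 lower (62.5%), with a median of -1.27. The shares over all genes tested were 20.0% higher and 22.7% lower. The difference between the classes was not tested, since the members are not replicates of a class.

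**Figure D1:**
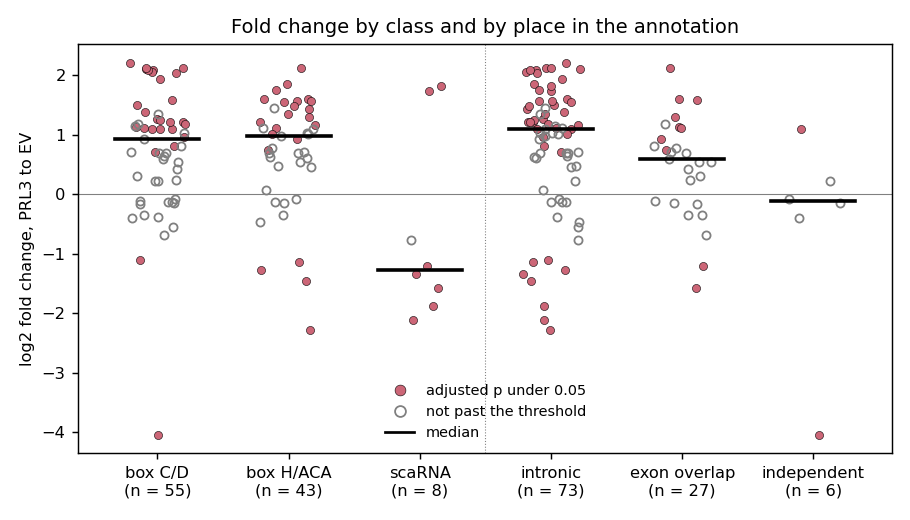
Each point is 1 of the 106 member genes, with its log2 fold change of PRL3 to EV on the y axis, grouped by class on the left of the dotted line and by place in the annotation on the right; filled points passed an adjusted p of 0.05 and lines are medians. The scaRNA median lies at -1.27, below 0, and the intronic median at 1.10, above it, with SNORD3A alone at -4.04.

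By place, 73 members lay in an intron of a gene on the same strand with no exon overlap. Of these, 36 were higher and 8 lower (median 1.10). Among the 27 that overlapped an exon of another gene on the same strand, 8 were higher and 2 lower (median 0.59). Only 6 had no same-strand host, with 1 higher and 1 lower (median -0.11).

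SNORD3A, the U3 gene that guides cleavage of the ribosomal RNA precursor rather than its methylation, dominated the class. It had 384018, 484555 and 304036 raw reads in EV B1, B2 and B3, and 15334, 43754 and 30039 in PRL3 B9, B10 and B11. In normalized counts (reads scaled to the mean effective library size) these were 467687, 582989 and 276459 in EV and 15788, 32559 and 32201 in PRL3. Every PRL3 library lay far below every EV library. The log2 fold change was -4.04 (SE 0.33, edgeR adjusted p = 7.4e-06), or 16.5-fold lower in PRL3, and it stayed between -4.53 and -3.55 under every scaling, tool and left-out library tried.

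Because of this gene, the summed reads of the members were 0.863% ± 0.233 (SD, n = 3) of gene reads in EV and 0.215% ± 0.0392 in PRL3. SNORD3A made up 84.6% to 93.0% of the members' reads in EV libraries and 24.6% to 33.9% in PRL3 libraries. Without it the direction turned, to 0.0804% ± 0.0138 of gene reads in EV and 0.148% ± 0.018 in PRL3. Per 1000000 uniquely aligned reads, however, the members without SNORD3A summed to 493 ± 36.8 in EV and 469 ± 80.1 in PRL3, a difference smaller than the spread between libraries.

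The other U3 genes did not pass the test under the main scaling. SNORD3B-2 had normalized counts of 7438, 11077 and 11399 in EV and 9419, 12888 and 12748 in PRL3 (log2 fold change 0.23, SE 0.19, edgeR adjusted p = 0.36). SNORD3B-1 had 3891, 6189 and 4471 in EV and 3485, 5302 and 4951 in PRL3 (-0.08, SE 0.20, edgeR adjusted p = 0.77). SNORD3C had 172, 164 and 113 in EV and 82.4, 115 and 144 in PRL3 (-0.39, SE 0.33, edgeR adjusted p = 0.37). In each the groups overlapped, and the sign of each turned under at least 1 other scaling or left-out library. With library size alone SNORD3B-2 passed the test as higher (0.71, edgeR adjusted p = 0.0057), and with all uniquely aligned reads as library size SNORD3C passed it as lower (-0.88, edgeR adjusted p = 0.045).

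The U3 values are uncertain as measures of separate genes. SNORD3A differs from each of the other copies at 1 of the 217 bases printed above (99.5% identity), and only reads that aligned to 1 place were counted. The gene models run 482 bases past this stretch in SNORD3A, 541 in SNORD3B-1, 574 in SNORD3B-2 and 364 in SNORD3C, where identity with SNORD3A is between 75.5% and 88.4%. Within the stretch a read unique to SNORD3A must cover both capitalised positions. SNORD3B-1 and SNORD3B-2 are identical there, so reads unique to either of them must reach beyond it. The values of the copies may thus rest on different parts of the gene models, and the counts do not separate mature U3 from longer RNA.

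SNORD13, which makes the U13 snoRNA needed for acetylation of 18S ribosomal RNA, went the other way. Its normalized counts were 251, 586 and 769 in EV and 1069, 1052 and 1340 in PRL3. The lowest PRL3 value was above the highest EV value (log2 fold change 1.10, SE 0.31, edgeR adjusted p = 0.011), but the call was lost with all uniquely aligned reads as library size (0.64, adjusted p = 0.083). SNORA11F, the last member without a host, had 85.3, 86.6 and 40.9 in EV and 62.8, 41.7 and 87.9 in PRL3, with the groups overlapping.

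**Figure D2:**
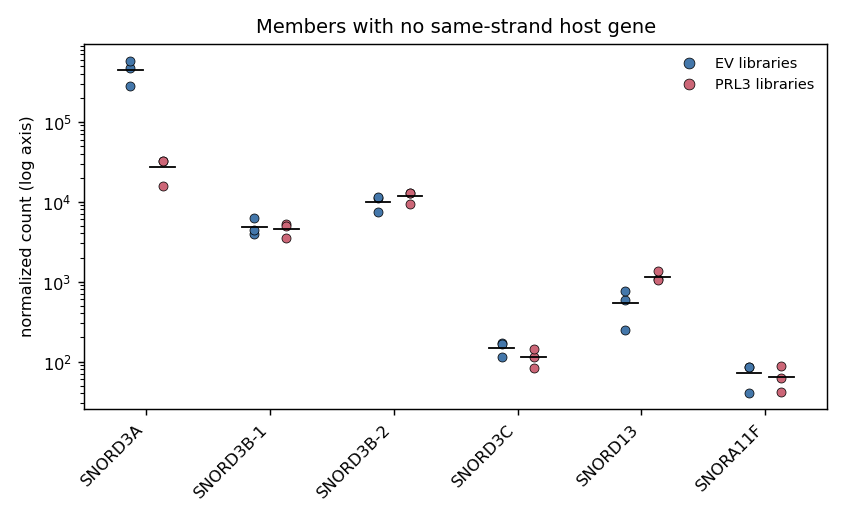
Normalized counts on a log axis for the 6 members with no same-strand host; points are the 3 EV and 3 PRL3 libraries and bars the group means. SNORD3A falls from a mean of 442378 to 26849, SNORD13 rises from 535 to 1154, and the groups of the other 4 genes overlap.

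Among hosted box C/D members the smallest p among the higher ones belonged to SNORD12B. Its normalized counts were 692, 638 and 1008 in EV and 3319, 3250 and 3649 in PRL3, so that the lowest PRL3 library was above the highest EV library by more than the whole EV range (log2 fold change 2.13, SE 0.19, edgeR adjusted p = 9.6e-06). SNORD12C, in the same host, had 854, 1117 and 1450 in EV and 2049, 3321 and 2566 in PRL3 (1.21, SE 0.22, adjusted p = 0.00068). Both printed sequences hold the C and D boxes, and they are identical at 69 of 93 aligned positions. Their host ZFAS1, a long noncoding RNA gene, also rose (1.20, SE 0.17).

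SNORD99, a guide for methylation of 28S ribosomal RNA, had 297, 270 and 424 in EV and 800, 1008 and 996 in PRL3, again without overlap (log2 fold change 1.50, SE 0.22, edgeR adjusted p = 0.00013). SNORD104, another 28S guide, was the only hosted box C/D member that was lower. It had 934, 1887 and 872 in EV and 346, 554 and 809 in PRL3 (-1.11, SE 0.32, adjusted p = 0.014). The groups did not overlap, but by a small gap, and the call was lost without EV B2 (-0.65, adjusted p = 0.094), without PRL3 B9 (-0.84, adjusted p = 0.072) and with library size alone.

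Box H/ACA members rose together in SNHG17, which hosts 4 SNORA71 genes, guides for pseudouridylation of 18S ribosomal RNA. SNORA71C had 470, 562 and 677 normalized counts in EV and 1719, 1879 and 1624 in PRL3 (log2 fold change 1.61, SE 0.18, edgeR adjusted p = 2.3e-05). SNORA71B had 672, 665 and 932 in EV and 2035, 2234 and 1874 in PRL3 (1.44, SE 0.18). SNORA71A had 509, 582 and 754 in EV and 1608, 1583 and 1384 in PRL3 (1.31, SE 0.19).
In all 3 the PRL3 libraries lay above the EV libraries. SNORA71D rose least of the 4 (0.94, SE 0.20, edgeR adjusted p = 0.0019), and its call was lost with all uniquely aligned reads as library size. The host rose by 0.75 (SE 0.16). SNORA71A, SNORA71C and SNORA71D are 83.1% to 86.6% identical to each other over their length.

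SNORA23, a guide for 28S ribosomal RNA in IPO7, fell most among box H/ACA members. It had 548, 499 and 934 normalized counts in EV and 69.0, 154 and 182 in PRL3, with a wide gap between the groups (log2 fold change -2.29, SE 0.35, edgeR adjusted p = 0.00019). SNORA74A had 231, 470 and 644 in EV and 98.8, 211 and 179 in PRL3 (-1.46, SE 0.36, adjusted p = 0.0058), the highest PRL3 library being just under the lowest EV library. Its neighbour SNORA74D in the same host had 504, 656 and 604 in EV and 708, 878 and 845 in PRL3 (0.46, SE 0.19, adjusted p = 0.060).
The 2 genes thus had opposite signs within SNHG4, which itself rose by 1.36 (SE 0.18); the difference between them was not tested. SNORA49 was also lower (-1.28, SE 0.44, edgeR adjusted p = 0.033) with overlapping groups, and its call was lost without any 1 of EV B1, EV B2, PRL3 B9 and PRL3 B10 (adjusted p from 0.083 to 0.12), as well as with limma-voom, upper-quartile factors or library size alone. SNORA73B, the box H/ACA member with the most reads and needed for cleavage of the ribosomal RNA precursor, had 2900, 2676 and 5294 in EV and 2359, 3742 and 3792 in PRL3, without a difference past the spread (-0.14, SE 0.25), although its host SNHG3 rose by 1.92.

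Cajal body RNAs were lower in 5 of 8 cases. SCARNA21 had 754, 1090 and 613 normalized counts in EV and 109, 244 and 213 in PRL3 (log2 fold change -2.11, SE 0.30, edgeR adjusted p = 0.00013). SCARNA7, a guide for methylation of the U1 small nuclear RNA and the scaRNA with the most reads, had 3725, 1635 and 1532 in EV and 428, 650 and 791 in PRL3 (-1.88, SE 0.32, adjusted p = 0.00044). SCARNA5, a guide for the U5 small nuclear RNA, had 810, 492 and 1137 in EV and 212, 356 and 402 in PRL3 (-1.33, SE 0.30, adjusted p = 0.0032).
For these 3 the groups did not overlap, and the calls held under every scaling, tool and left-out library tried. SCARNA13 had 771, 497 and 1215 in EV and 197, 500 and 383 in PRL3 (-1.20, SE 0.34, edgeR adjusted p = 0.013). Its groups overlapped by a little, and the call was lost without EV B3 (-0.82, adjusted p = 0.055), without PRL3 B9 (-0.90, adjusted p = 0.060) and with library size alone. SCARNA22 also fell (-1.57, SE 0.56, edgeR adjusted p = 0.039) and SCARNA6 did not pass the test (-0.76, SE 0.33, adjusted p = 0.076).

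SCARNA18B and SCARNA1 went up. SCARNA18B had 108, 81.8 and 128 in EV and 272, 301 and 497 in PRL3 (log2 fold change 1.74, SE 0.31, edgeR adjusted p = 0.00054). SCARNA1, a guide for the U2 small nuclear RNA, had 25.6, 42.1 and 22.7 in EV and 95.8, 91.5 and 133 in PRL3 (1.82, SE 0.43, adjusted p = 0.0040). Neither had overlapping groups.

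**Figure D3:**
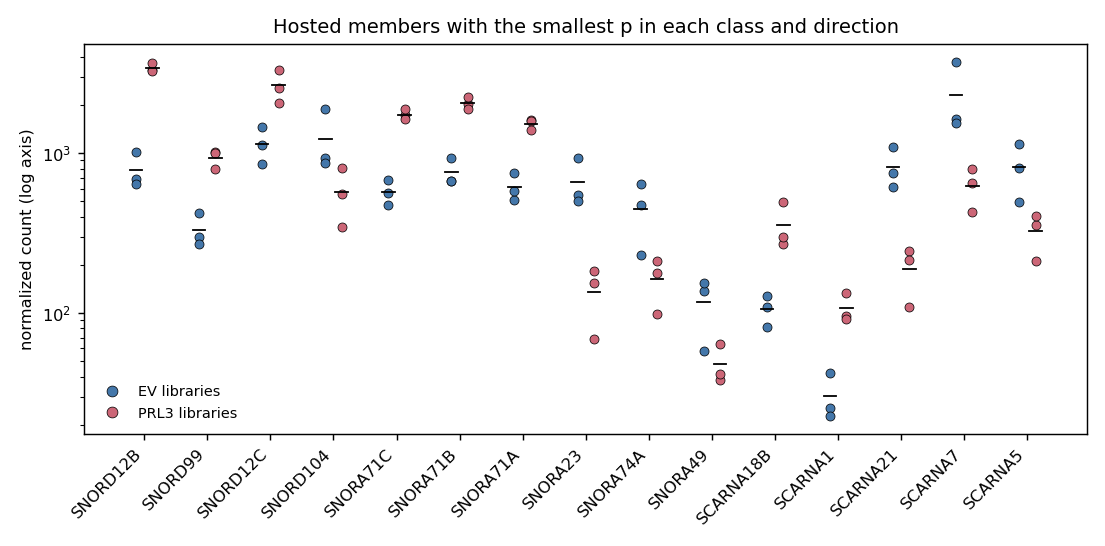
Normalized counts on a log axis for the hosted members with the smallest p in each class and direction; points are the 3 EV and 3 PRL3 libraries and bars the group means. SNORD12B separates furthest upward, from a mean of 779 to 3406, and SNORA23 furthest downward, from 660 to 135, while the groups of SNORA49 overlap.

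Levels were described per length, which is no measure of amounts. Paired reads can span more than the shorter of these genes, so counts need not grow with length and the order depends on the divisor. For SNORD3A the divisor is the gene model of 699 bases, not the 217 bases printed above. Per kilobase of annotated gene, SNORD3A had a mean of 632873 normalized reads in EV, followed by SNORA73B with 17761, SNORD104 with 17584 and SNORD12C with 12811. In PRL3 the order began with SNORD3A (38411), SNORD12B (37431), SNORD12C (29724) and SNORA73B (16164). The means of SNORD3A and SNORD12B in PRL3 lay within the spread of SNORD3A between its libraries.

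Members that were lower had longer genes. The annotated length had a median of 94 bases over the 45 higher members and 182 over the 11 lower ones. Among the 43 members of up to 100 bases, all box C/D, 24 were higher (55.8%) and 1 lower (2.33%), with a median log2 fold change of 1.11. Of the 46 over 100 and up to 150 bases 18 were higher (39.1%) and 4 lower (8.70%), with a median of 0.87. Of the 17 over 150 bases 3 were higher (17.6%) and 6 lower (35.3%), with a median of -0.35. The shares over all genes tested were 20.0% higher and 22.7% lower. Across the 106 members the log2 fold change and the log2 length had a Spearman correlation of -0.40 (Pearson -0.48), and -0.35 over the 100 with a host. These are descriptions across genes of the same libraries, which are not independent of each other, and length goes with class, since scaRNA members had a median length of 216 bases, box H/ACA members 135 and box C/D members 91. The T content, where 4sU can enter, had a median of 27.2% in box C/D, 27.0% in box H/ACA and 28.1% in scaRNA members. Its Spearman correlation with the log2 fold change was 0.21 (Pearson 0.13). For the GC content it was -0.29 (Pearson -0.26), and for the log2 mean count -0.13 (Pearson -0.33).

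**Figure D4:**
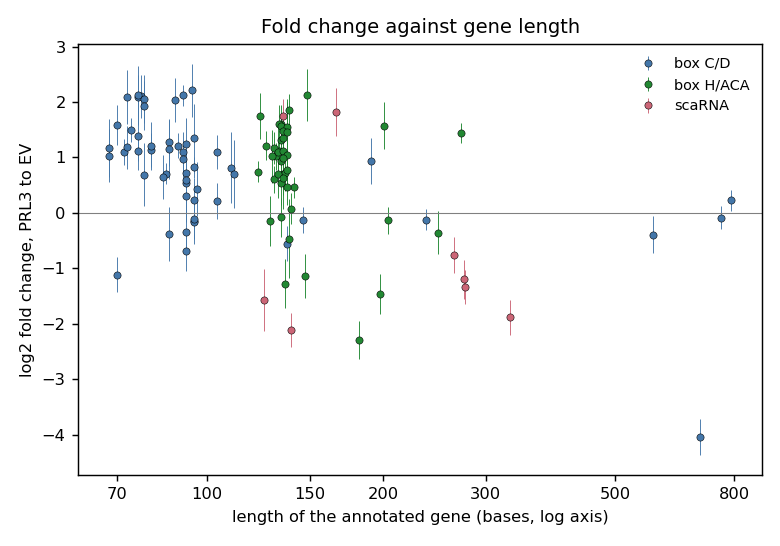
Log2 fold change of PRL3 to EV (y axis, bars are standard errors) against the length of the annotated gene in bases (x axis, log scale), 1 point per member, coloured by class. Members of up to 100 bases have a median of 1.11 and those over 150 bases a median of -0.35, with SNORD3A lowest at -4.04.

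The fold change of each member was then set beside that of the exonic counts of its host. The 100 members with a same-strand host lay in 72 host genes, and for 96 of them the host was tested. Over these 96 the log2 fold change of the member and that of its host had a Spearman correlation of 0.09 (39 of these members share a host with another). The member lay above its host in 77 of 96 cases, and the difference over all 96 had a median of 0.96 on the log2 scale. Members that overlap an exon on the same strand are included. For these, reads over both genes can be set aside as ambiguous, and their part in the difference was not tested.

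The contrast was widest in ribosomal protein genes, whose introns are a well-known home of snoRNAs. All 11 tested hosts of this kind were lower in PRL3 cells (median -1.38). Of their 13 members 9 were higher (69.2%), 0 were lower, and 4 did not pass the test (median 1.10). Among all genes tested, 20.0% were higher and 22.7% lower. RPS12 fell by 1.93 on the log2 scale (SE 0.24), while its intronic SNORA33 (1.17, SE 0.30), SNORD100 (1.11, SE 0.34) and SNORD101 (1.18, SE 0.40) rose. The EV and PRL3 libraries overlapped for SNORD100 and SNORD101, but not for SNORA33. RPL5 fell by 1.66 (SE 0.21) and its SNORA66 rose by 1.60 (SE 0.36). RPL23A fell by 1.38 (SE 0.16) and its SNORD4A rose by 1.10 (SE 0.24).

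The 52 members in 44 other protein-coding hosts had a median of 1.03 beside a host median of -0.09, with 14 of these hosts lower and 8 higher. The 31 members in 14 noncoding hosts had a median of 0.59 beside a host median of 0.66, with 8 hosts higher and 1 lower. Of all genes tested, 22.7% were lower and 20.0% higher. Over all 96 members, 17 were higher with a lower host, 13 higher with a higher host and 1 lower with a lower host. In 3 cases a member fell while its host rose, namely SNORA74A in SNHG4, SCARNA13 in SNHG10 and SCARNA7 in KPNA4. SNORA74A also lies in MATR3, and SNORA73B, set beside SNHG3 above, also lies in RCC1. For these the host depends on the rule that takes snoRNA host genes first.

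**Figure D5:**
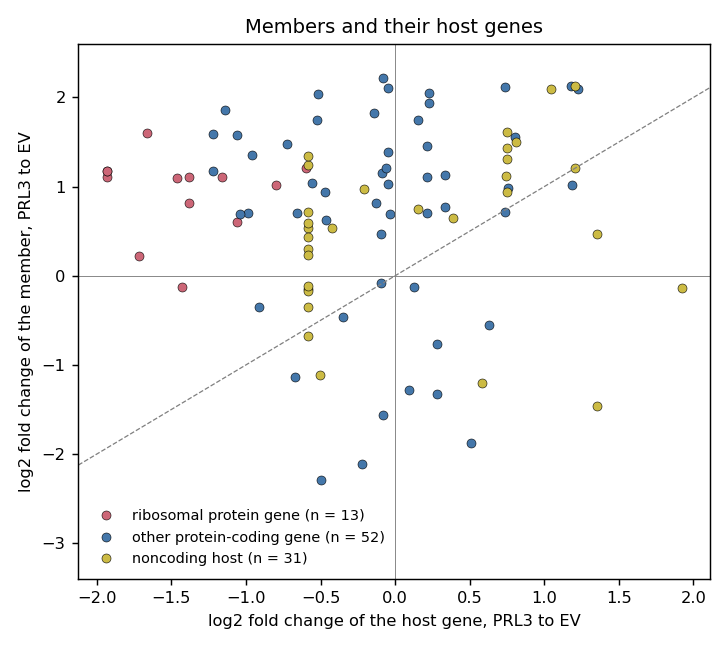
Log2 fold change of PRL3 to EV of each member (y axis) against that of its host gene (x axis), 1 point for each of 96 members, coloured by the kind of host; the dashed line marks equal values. Members in ribosomal protein genes sit above the line in 13 of 13 cases, with hosts at a median of -1.38 and members at 1.10.

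Other small genes that lie in introns on the host's strand were set beside the members by the same read minimum. Of 194 such miRNA, snRNA and misc_RNA genes, 100 were higher and 4 lower (median log2 fold change 1.21), beside 36 higher and 8 lower of the 73 intronic members (median 1.10). Of 71 without a same-strand host, 23 were higher and 15 lower (median 0.24). A read over an intronic gene can come from the cut-out small RNA or from unspliced host RNA that crosses it, and the counts cannot tell these apart. The share of reads outside exons given above moves the same way as these medians, and its part was not tested.

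The largest group in 1 host was SNORD116 in SNHG14, repeated copies of a box C/D RNA from the imprinted region lost in Prader-Willi syndrome. Of 13 such members 1 was higher and 0 lower, or 7.69% and 0%, beside 20.0% and 22.7% of all genes tested. The higher one was SNORD116-17 (log2 fold change 1.25, SE 0.46, edgeR adjusted p = 0.045). The median was 0.30, from -0.68 in SNORD116-18 to 1.34 in SNORD116-5. SNORD116-18 had 146, 118 and 278 normalized counts in EV and 77.2, 139 and 122 in PRL3, and SNORD116-5 had 18.3, 26.5 and 10.0 in EV and 52.5, 58.8 and 26.8 in PRL3. Neither passed the test, and the 13 copies are 77.1% to 100% identical in pairs, so that a read that aligns to several of them was not counted. SNORD116-17 is identical to SNORD116-19 (-0.35, SE 0.35), and SNORD116-5 to SNORD116-7 (-0.15, SE 0.33). For such pairs, reads that align to 1 place must reach into the flanking sequence. SNHG14 itself fell by 0.59 (SE 0.15). In GNL3, a gene for a nucleolar protein, the 3 members ran from SNORD19 (1.03, SE 0.47, edgeR adjusted p = 0.094) to SNORD69 (2.10, SE 0.38, edgeR adjusted p = 0.00074) beside a host at -0.05; 3 members also lie in RPS12, and GNL3 was taken as first by name.

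Copies of 1 sequence were also counted separately. SNORD62A and SNORD62B are identical over all 86 bases, both in introns of PRRC2B, and had log2 fold changes of -0.38 (SE 0.49) and 1.27 (SE 0.42, edgeR adjusted p = 0.025). The difference between them was not tested, and both were named after their values were seen. Reads that align to 1 place must reach into the flanking intron there. For 5 members (SNORD39, SNORD63, SNORD116, SNORA72 and SNORA75) the symbol names other listed genes too, and the values are those of 1 identifier.

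The genes of the 8 core proteins of these particles were lower or did not pass the test. Under the main scaling all 8 had negative log2 fold changes, and 5 passed the test as lower, as did 22.7% of all genes tested. With library size alone the median over all genes moved from 0.11 to 0.60, so the sign of the smaller changes may depend on the scaling. Of the box C/D core, FBL (-1.32, SE 0.17), the methyltransferase, and SNU13 (-1.42, SE 0.16), which binds the C and D boxes, fell. The scaffold proteins NOP56 (-0.27, SE 0.15) and NOP58 (-0.52, SE 0.26) did not pass. Of the box H/ACA core, NHP2 (-1.63, SE 0.18), NOP10 (-1.56, SE 0.17) and the pseudouridine synthase DKC1 (-0.89, SE 0.18) fell, and GAR1 (-0.31, SE 0.21) did not pass.

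NHP2 had 15439, 18722 and 13834 normalized counts in EV and 4242, 6184 and 5056 in PRL3, and FBL had 14908, 15959 and 11567 in EV and 5110, 6636 and 5305 in PRL3, with a wide gap in both. Over the whole list of 32 core, assembly, Cajal body and processing genes, 13 were lower (40.6%) and 4 higher (12.5%), beside 22.7% and 20.0% of all genes tested (median log2 fold change -0.38). Among the 10 assembly factors 4 fell, among them RUVBL2 (-1.63), and 3 rose, among them NAF1 (0.63), an early binder of box H/ACA RNAs. Of the 7 Cajal body genes WRAP53 (-0.61), which brings scaRNAs to Cajal bodies, and NOLC1 (-0.54) fell, and PHAX (0.66), an adaptor for RNA export and scaRNA transport, rose. Of the 7 release and trimming genes the exonuclease XRN2 (-0.95) and the exosome subunit EXOSC10 (-0.44) fell. With all uniquely aligned reads as library size 20 were lower and 0 higher, beside 35.5% and 8.17% of all genes. With library size alone 8 were lower and 12 higher, beside 12.9% and 39.8% of all genes, so that the counts in each direction depend on the scaling.

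Near the minimum, the members with the fewest reads in their lowest library were SNORD111, SNORD63 and SNORD67 (10 reads each), SNORA2A and SNORA70D (11 each). Just outside it were SNORD11, SNORA84, SCARNA8 and SNORD116-11 with 9 reads and SNORA74 with 8. In 10 of these 10 genes the lowest library was an EV library, and SNORD11, for instance, had 21, 9 and 77 reads in EV and 150, 146 and 137 in PRL3. Among the genes that are no members, 149 of the 313 genes without reads (47.6%) lay wholly in an exon of another gene on the same strand, where the authors' counting sets a read aside as ambiguous between genes. The same held for 16 of the 133 genes with reads below the minimum (12.0%) and for 25 of the 106 members (23.6%), in an annotation later than the one the authors used.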

How the data were processed

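Nascent RNA of 6 libraries of A375 cells (3 EV, 3 PRL3) was sequenced after 4sU labelling. The authors aligned paired reads to GRCh38 and counted reads per Ensembl gene (annotation release 91) on the expected strand. The submitters' processing notes name FastQC 0.11.3, STAR 2.5.1b and HTSeq 0.6.1. The deposited values are these raw counts, without normalization. A read that overlaps 2 genes is not counted for either, so a snoRNA inside an annotated exon can be listed at 0, and library preparation for longer fragments may recover short RNAs poorly, so that counts are not amounts of RNA.

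Symbols, hosts and sequences came from GENCODE release 44, on the same build (57532 of 58243 identifiers matched), and the U3 ends from RefSeq. A host is a gene on the same strand that contains the member. Where several do, a snoRNA host gene (SNHG and the like) was taken first, then a protein-coding gene. All genes were fitted together in R 4.3.3 with edgeR 4.0.16 (TMM factors, filterByExpr by group, quasi-likelihood test, Benjamini-Hochberg adjustment over 23884 genes, threshold 0.05). Standard errors follow from the F statistic. On simulated counts for this comparison the fit recovered the right direction in 43 of 100 genes changed 2-fold and 80 of 100 changed 4-fold, and called 6 of 22589 unchanged genes. Differences of 2-fold can thus be missed. Only those genes were changed in the simulation, whereas 20.0% and 22.7% of genes were called higher and lower in the data. The adjusted p depends on that share, so these rates may not hold for the data.

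The rule for named genes gave all members without a host, the 3 members with most reads in each class, the 3 with the smallest p in each class and direction, 5 genes on either side of the read minimum, the extremes of the 3 hosts with most members (ties by name), the 8 core proteins and PTP4A3. Other members, hosts and processing genes given as examples fall outside this rule and were chosen after their values were seen. The members, lists and rules were chosen with earlier results of these data known. The alternatives were RLE and upper-quartile factors, library size alone, all uniquely aligned reads as library size, DESeq2 1.42.0, limma-voom (limma 3.58.1), no low-count filter, each library left out, an adjusted p of 0.01, other read minimums (5 and 20), members without exon overlap, and hosts limited to protein-coding and lncRNA genes. A count without SNORD3A was added after seeing the data. Sequences from chromosome 8 were not printed, and 1 other sequence is not reported here.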

Additional observations from a re-analysis of the deposited data

Results flagged for a closer look

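The genes of these symbols that had reads but missed the minimum of 10 in some library, and so entered none of the comparisons above, had higher summed counts in the PRL3 libraries. Over 133 such genes the summed normalized counts were 1101, 878 and 1369 in EV B1, B2 and B3 and 2789, 2706 and 3504 in PRL3 B9, B10 and B11, a ratio of the means of 2.69. A gene can miss the minimum through low EV libraries alone, and of the 5 genes just outside it the lowest library was an EV library in each. The genes are thus chosen by the values summed here, so no test is given and they are no independent check of the members.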

How the results depend on the processing

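The medians of box C/D and box H/ACA members stayed above 0 and that of scaRNA members below 0 under every alternative tried. Of 21 named members past the threshold, 16 kept sign and call under all 14 alternatives that apply to single genes, and none of the 21 changed sign. Most of the 21 were named for the smallest p in these same data, so they were likely to keep their calls. The tally does not describe the called members that were not named. The number of members higher was 27 with all uniquely aligned reads as library size, and 33 to 50 when 1 library was left out. The number lower was 6 with library size alone or an adjusted p of 0.01, and 6 to 11 when 1 library was left out. The members' median was 1.36 with library size alone, 0.40 with all uniquely aligned reads, and 0.68 to 1.04 when 1 library was left out. The median of the 6 members without a host, -0.11, became 0.065 with upper-quartile factors and 0.39 with library size alone, and ran from -0.29 to 0.095 when 1 library was left out (the highest without EV B2).

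The snoRNP and processing genes were higher in 7 cases with upper-quartile factors, 12 with library size alone, 0 with all uniquely aligned reads, 1 at an adjusted p of 0.01 and 2 to 8 when 1 library was left out, and lower in 8, with library size alone, in 20 with all uniquely aligned reads and in 10 to 14 when 1 library was left out. Signs also turned for members that were not called. With upper-quartile factors the log2 fold change was 0.033 for SNORA73B, 0.045 for SNORA11F and 0.085 for SNORD3B-1. With library size alone it was 0.33 for SNORA73B, 0.37 for SNORA11F, 0.10 for SNORD3C and 0.40 for SNORD3B-1. With all uniquely aligned reads it was -0.24 for SNORD3B-2. When 1 library was left out, the value ran from -0.43 to 0.10 for SNORA11F, from -0.23 to 0.15 for SNORD3B-1 and from -0.29 to 0.23 for SNORA73B. Apart from the change of scale, the causes were not tested.

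No paired analysis was possible because EV and PRL3 libraries have no replicate number in common. With 3 libraries a group and low counts in many members, smaller differences can be missed.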

Other observations

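Other small RNAs with genes of their own also moved apart from each other. RNU6ATAC, the U6 RNA of the minor spliceosome, had 246, 770 and 102 normalized counts in EV and 24.7, 21.6 and 18.2 in PRL3 (log2 fold change -4.10, SE 0.62, edgeR adjusted p = 0.00017), with no overlap between the groups. TERC, the telomerase RNA, which ends in an H/ACA domain, had 15.8, 14.4 and 23.6 in EV and 21.6, 84.1 and 70.7 in PRL3 (1.70, SE 0.61, edgeR adjusted p = 0.038), with overlapping groups. RNU4ATAC, also of the minor spliceosome, did not pass the test (0.40). All 3 were picked after their values were seen.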
